A study of Mus musculus with 39 samples.

Results

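The 9 genes described here are the cytoplasmic polyadenylation element binding proteins Cpeb1, Cpeb2, Cpeb3 and Cpeb4 and 5 germline regulators of translation, namely Dazl, Boll, Ybx2, Ddx4 and Ddx25. They were taken by gene symbol from the deposited count tables, joined on the Ensembl identifier, and all 9 were found among the 21561 Ensembl genes that the tables share. The study placed a cetacean insulin-like peptide 3 (INSL3) in mice and followed testis descent. RNA was sequenced from 39 libraries in 13 groups of 3 biological replicates, of which 24 were from testis and 15 from the gubernaculum, the cord of mesenchyme and muscle that guides the testis. All mice were C57BL/6J. In INSL3-KI mice, both copies of mouse Insl3 carried the INSL3 cDNA of the minke whale, Balaenoptera acutorostrata, at the native locus, after the neo cassette had been removed by mating with Cre mice, and in INSL3-KO mice Insl3 was knocked out. Testes were collected at P8 and P23 from mice of all 3 genotypes, and at P40 from WT mice and INSL3-KI mice. Gubernacula were collected at P8 from the 3 genotypes and at P23 from WT and INSL3-KI mice.

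Male germ cells make many mRNAs long before their proteins are needed, because transcription stops while the spermatid nucleus is compacted. CPEB proteins bind a U-rich element near the end of the 3′UTR and either hold the mRNA silent with a short poly(A) tail or allow the tail to be extended. DAZL and BOLL bind other sites in the 3′UTR and promote translation, YBX2 coats and stores mRNAs, and the DEAD-box helicases DDX4 and DDX25 act in the RNA granules of germ cells and in mRNA export.

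The element that CPEB1 recognises is shown for 2 transcripts of the synaptonemal complex that are known targets of CPEB1. Each line is 30 bases of the 3′UTR, 5′ to 3′ on the transcript strand in DNA letters, and the capitals mark the match to TTTTAT or TTTTAAT.
Sycp1: tttcatctgaatTTTTATtgtattcagata
Sycp3: tttgtttgtttgTTTTAATagttgttctct
The Sycp1 3′UTR was 326 bases long with 1 match, 142 bases from the end. The Sycp3 3′UTR was 420 bases long with 3 matches, the last of them 45 bases from the end. No match was found in the annotated 3′UTRs of Tex19.1, Prm1, Prm2, Tnp1, Tnp2, Smcp or Pgk2. The 9 members themselves all held at least 1 match, from 1 in Ybx2 to 24 in Cpeb2. These letters are common, since 56.6% of 20987 genes with a 3′UTR held 1 or more and 17.7% held 1 in the last 100 bases.

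Total counts per library ranged from 29861447 to 45260372, with a median of 36944626, and no pair of replicates agreed within sampling noise. The libraries stand in 2 tables with different annotations. The second table holds all INSL3-KO libraries and WT testis at P23, and the first holds the others, so table and group cannot be told apart in testis for INSL3-KO against WT at P8, for INSL3-KI against WT or INSL3-KO at P23, for WT at P23 against P8, and in gubernaculum for INSL3-KO against WT at P8. As a check of the labels, Insl3 in WT testis was 63.4 to 79.5 CPM (counts relative to the TMM-scaled library size) at P8, 840.0 to 1029 at P23 and 826 to 1000.1 at P40. It was 0.379 to 0.725 in INSL3-KI at P8, 1.41 to 2.31 at P23 and 11.1 to 12.5 at P40. In the libraries labelled INSL3-KO it was 0 to 0.115 at P23 but 13.4 to 17.8 at P8, so at P8 mouse Insl3 was detected in all 3 of them. The spread within INSL3-KI testis was wide. The summed level of 8 late spermatocyte markers was 1363 CPM in P8 INSL3-KI replicate 2 against 140.3 and 166.4 in the other replicates, 2930 in P23 INSL3-KI replicate 3 against 6383 and 6643, and 3047 in P40 INSL3-KI replicate 1 against 487.2 and 503.5. Without P23 INSL3-KI replicate 3 the log2 differences from WT at P23 were -3.24 for Cpeb3, -0.67 for Ddx25, -0.43 for Ddx4, -0.38 for Cpeb4 and -0.25 for Ybx2. In bulk tissue, fewer cells of a type and less RNA per cell cannot be told apart.

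**Figure D1:**
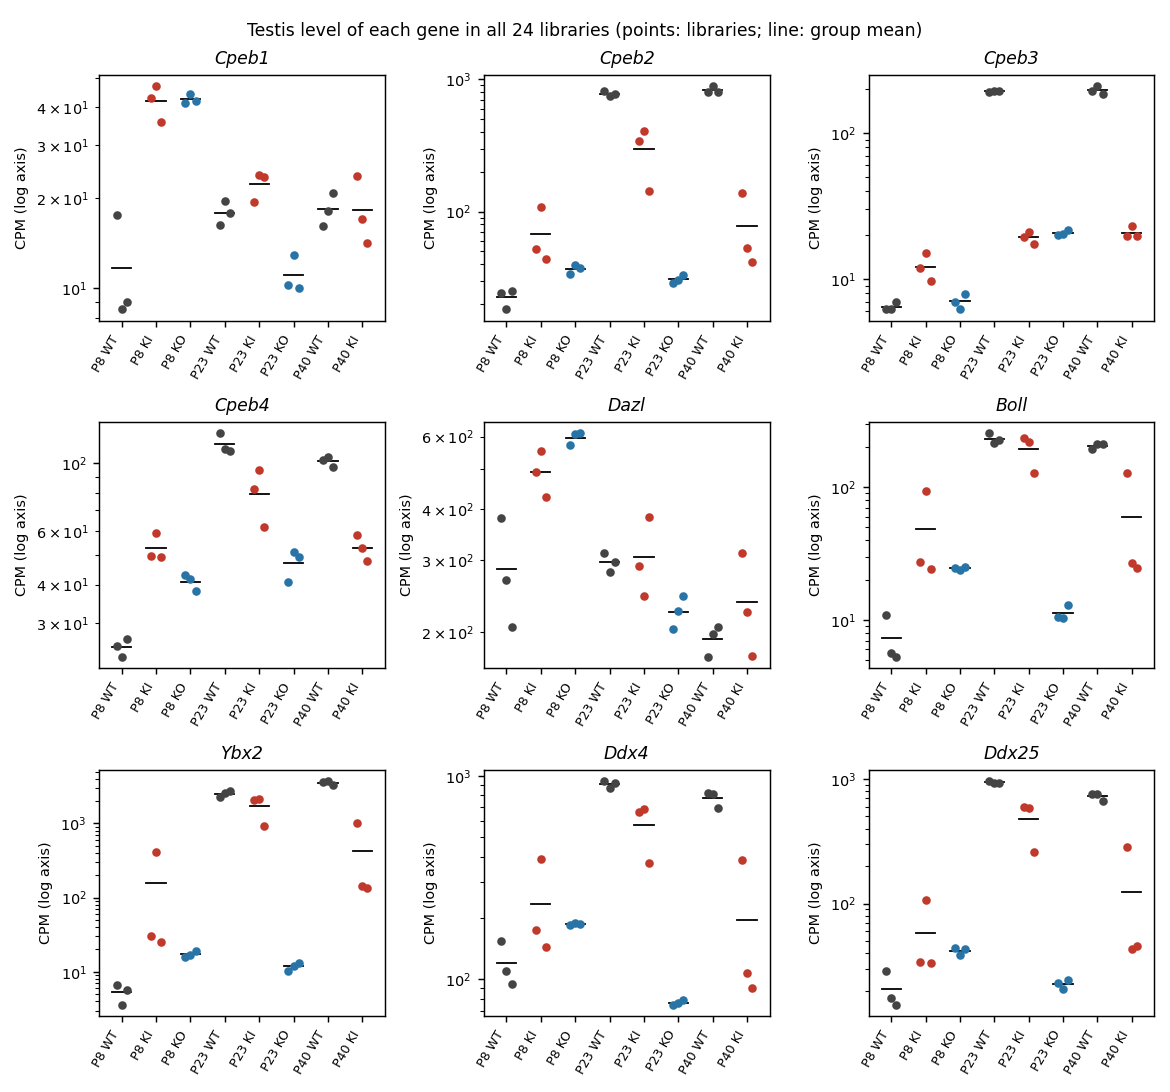
Level of each member in CPM (log axis) in the 24 testis libraries, 1 point per library with the group mean as a line, grouped by age and genotype (WT dark grey, INSL3-KI red, INSL3-KO blue). Cpeb3 sits at 17.4 to 23.2 CPM in the INSL3-KI libraries at P23 and P40 and at 184 to 210.3 CPM in WT.

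In WT testis the order of the members' levels changed between P8 and P40. On the FPKM scale, which divides by transcript length and library size, Dazl was the highest member at P8, at 106 ± 34.8 (SD, n = 3), followed by Ddx4 at 43.6 ± 11.8. The other members were between 1.47 ± 0.13 FPKM for Cpeb3 and 6.07 ± 0.496 FPKM for Cpeb4, and Boll at 5.66 ± 2.69, Cpeb1 at 4.37 ± 2.06, Cpeb2 at 3.68 ± 0.564, Ybx2 at 3.51 ± 1.09 and Ddx25 at 3.27 ± 1.23 lay within each other's spread. At P40 Ybx2 stood at 1388 ± 44.3 FPKM and Ddx4 at 169 ± 7.1. Boll at 82.2 ± 3.42 and Cpeb2 at 81.3 ± 3.75 were not separated by their spread, Ddx25 was at 67.9 ± 1.72, and Cpeb3 at 45.2 ± 3.75 and Dazl at 42.3 ± 5.33 overlapped. Cpeb4 at 17.5 ± 0.44 and Cpeb1 at 4.06 ± 0.719 were the lowest. The place of Ddx25 in these orders rests on the gene model, and its FPKM cannot be compared across tables. Counts and FPKM implied a transcript of 7173 bases in the first table and 1834 bases in the second, a difference of -74.4%. In WT testis at P23, in the second table, Ddx25 was at 322 FPKM and Ddx4 at 195, with means of 943 and 911 CPM. At P40, in the first table, their means were 725 and 776 CPM.

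Cpeb3, a CPEB paralogue known in neurons as a repressor of translation, spans chr19:37021291-37208601 on the minus strand of GRCm38 (ENSMUSG00000039652). In WT testis it was 6.26, 6.18 and 6.92 CPM at P8, 191, 192 and 195 CPM at P23 and 192, 210.3 and 184 CPM at P40. In INSL3-KI testis it was 11.8, 15.0 and 9.64 CPM at P8, 19.5, 20.9 and 17.4 CPM at P23 and 19.6, 23.2 and 19.6 CPM at P40. The WT libraries at P23 and P40 were all above every INSL3-KI library, with no library near the gap. In INSL3-KO testis it was 6.93, 6.27 and 7.88 CPM at P8 and 19.9, 20.3 and 21.8 CPM at P23. Cpeb3 thus fell in INSL3-KI against WT by 3.30 ± 0.13 (SE) on the log2 scale at P23 (95% interval -3.62 to -2.99, edgeR adjusted p = 9.7e-05), a 9.87-fold lower level, and by 3.18 ± 0.14 at P40 (9.05-fold, edgeR adjusted p = 4.9e-05). The 14 alternatives tried at each age kept both calls, with values from -4.21 to -2.80 at P23 and from -5.35 to -1.57 at P40. In INSL3-KO at P23 it fell by 3.16 ± 0.06 against WT (8.93-fold, edgeR adjusted p = 8.2e-12), a difference that came to 0.034 when libraries were scaled on spermatocyte markers.

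At P23 the mutants overlapped in Cpeb3. INSL3-KI differed from INSL3-KO by -0.10 on the log2 scale with a 95% interval of -0.45 to 0.25 (edgeR adjusted p = 0.58). The summed level of the 14 spermatocyte markers was 1679 to 2594 CPM in INSL3-KI and 260.6 to 278.7 CPM in INSL3-KO. Scaled on Sertoli cell markers the difference between the mutants was 1.57, and on spermatocyte markers it was -2.87 and called lower in INSL3-KI (edgeR adjusted p = 7.5e-06). The summed level of the 10 round spermatid markers was 5116 to 5143 CPM in WT at P23, 828.6, 1017 and 297 CPM in INSL3-KI and 20.57 to 22.8 CPM in INSL3-KO. The part of germ cell content in the level of Cpeb3 was not tested. At P8 Cpeb3 was 0.97 higher in INSL3-KI (edgeR adjusted p = 0.014, not called) and 0.15 higher in INSL3-KO (edgeR adjusted p = 0.46), and both turned negative on spermatocyte markers, at -2.30 and -2.76.

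The counts and FPKM values together imply the mean length of the Cpeb3 transcripts in a library, and this differed with the level. In WT testis the implied length was 2942, 3171 and 3043 bases at P23 and 3031, 2786 and 2903 bases at P40. In the P8 WT libraries it was 5264, 4304 and 5396 bases, in P23 INSL3-KI 3763, 4161 and 4740 bases, in P23 INSL3-KO 6282, 5502 and 4967 bases and in P40 INSL3-KI 5947, 5518 and 5674 bases. The 6 WT libraries at P23 and P40 were therefore below every other testis library, and gubernaculum libraries lay between 3973 and 6006 bases. The P23 WT libraries are in the second table and the P40 WT libraries in the first, so the short length was seen in both. The annotation lists 12 coding transcripts of Cpeb3 of 450 to 5899 bases. Its exons share 116 bases with an antisense gene, A330032B11Rik, and the strand setting of the counting is not given in the sources used here.

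**Figure D2:**
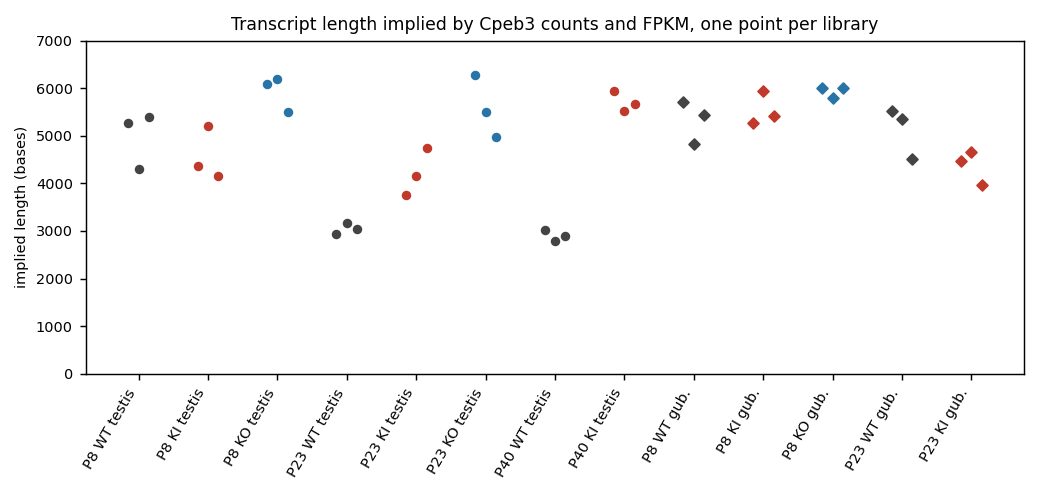
Mean transcript length of Cpeb3 in bases (y axis, from 0) implied by counts and FPKM, 1 point per library in each of the 13 groups (x axis), with circles for testis, diamonds for gubernaculum, and WT in dark grey, INSL3-KI in red and INSL3-KO in blue. The 6 WT testis libraries at P23 and P40 are the shortest, between 2786 and 3171 bases.

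RefSeq gives 3 start sites for Cpeb3 with unlike sequence before them. They are shown because the implied length changed with the level, although the counts do not tell which start was used. Each line is the 250 bases before the start, 5′ to 3′ on the minus strand of GRCm38.p6, with CG dinucleotides in capitals.
Cpeb3 chr19:37207472-37207721: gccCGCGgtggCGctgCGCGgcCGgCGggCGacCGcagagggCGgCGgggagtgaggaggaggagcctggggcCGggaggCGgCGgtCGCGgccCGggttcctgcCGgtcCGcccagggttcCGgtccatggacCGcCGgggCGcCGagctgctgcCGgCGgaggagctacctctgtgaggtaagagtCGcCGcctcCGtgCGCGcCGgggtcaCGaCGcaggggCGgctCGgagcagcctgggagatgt
Cpeb3 chr19:37198109-37198358: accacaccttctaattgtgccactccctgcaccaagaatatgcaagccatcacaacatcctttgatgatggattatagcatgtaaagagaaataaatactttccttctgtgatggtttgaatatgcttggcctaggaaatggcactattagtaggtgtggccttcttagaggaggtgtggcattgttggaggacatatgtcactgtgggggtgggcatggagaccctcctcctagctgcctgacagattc
Cpeb3 chr19:37176064-37176313: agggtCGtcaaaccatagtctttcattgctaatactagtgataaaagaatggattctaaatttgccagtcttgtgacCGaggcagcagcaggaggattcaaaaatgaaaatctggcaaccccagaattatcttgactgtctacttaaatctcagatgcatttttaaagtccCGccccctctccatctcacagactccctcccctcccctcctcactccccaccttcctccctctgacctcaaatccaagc
The printed stretches hold 36, 0 and 3 CG dinucleotides. Over 300 bases around the start the counts were 42, 0 and 4, against a median of 7 over 32851 promoters. Of all promoters, 38.0% held 4 or fewer and 15.5% held 27 or more.

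Cpeb2, at chr5:43233170-43289724 on the plus strand of GRCm38 (ENSMUSG00000039782), is a family member known from haploid germ cells. It was 24.3, 18.2 and 25.2 CPM in WT testis at P8, 810.4, 746 and 774 CPM at P23 and 807, 895 and 802 CPM at P40. In INSL3-KI it was 52.0, 108 and 43.9 CPM at P8, 340.2, 409 and 144 CPM at P23 and 138, 52.8 and 41.8 CPM at P40. The INSL3-KI libraries were thus all above WT at P8 and all below it at P23 and P40. In INSL3-KO it was 34.0, 39.6 and 37.3 CPM at P8 and 29.0, 30.6 and 33.0 CPM at P23. It fell by 3.39 ± 0.48 in INSL3-KI at P40 (10.5-fold, edgeR adjusted p = 0.0012) and by 4.59 in INSL3-KO at P23 (24.1-fold, edgeR adjusted p = 1.3e-12). In INSL3-KI at P23 the value was -1.37 (edgeR adjusted p = 0.021, not called), and without replicate 3 it was -1.04 and called. At P8 the values were 1.64 in INSL3-KI (edgeR adjusted p = 0.014, 1.17 without replicate 2) and 0.73 in INSL3-KO (edgeR adjusted p = 0.0034, under 2-fold), and on spermatocyte markers they were -1.71 and -2.16. An antisense gene, Gm7854, shares 137 exon bases with Cpeb2.

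Cpeb4, at chr11:31872211-31935634 on the plus strand (ENSMUSG00000020300), acts late in meiosis and in stress responses, and its range was narrower. It was 25.2, 23.2 and 26.5 CPM in WT at P8, 125, 112 and 109.9 CPM at P23 and 103, 105 and 96.8 CPM at P40. The INSL3-KI libraries held 49.8, 59.1 and 49.4 CPM at P8, 82.0, 94.7 and 61.8 CPM at P23 and 58.0, 52.7 and 47.9 CPM at P40. The INSL3-KO libraries held 42.9, 41.8 and 38.1 CPM at P8 and 40.7, 51.0 and 49.4 CPM at P23. The mutant libraries lay above WT at P8 and below it later, without overlap. Cpeb4 rose by 1.14 ± 0.11 in INSL3-KI at P8 (edgeR adjusted p = 0.0035), a call lost on Sertoli cell markers and without WT replicate 2, WT replicate 3, INSL3-KI replicate 1 or INSL3-KI replicate 3 (1.12 to 1.21 there, edgeR adjusted p of 0.012 to 0.034), and on spermatocyte markers the value was -2.09. It fell by 1.23 in INSL3-KO at P23 (2.35-fold, edgeR adjusted p = 4.9e-07), and this was 1.97 on spermatocyte markers. The value in INSL3-KI at P40 was -0.89 (edgeR adjusted p = 0.00064, under 2-fold) and 0.67 on spermatocyte markers.

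Cpeb1, at chr7:81347026-81455465 on the minus strand (ENSMUSG00000025586), is the founding member of the family and is needed for germ cells to pass pachytene. It was 17.6, 8.51 and 9.01 CPM in WT testis at P8, 16.3, 19.5 and 17.8 CPM at P23 and 16.1, 18.1 and 20.7 CPM at P40, so WT libraries of the 3 ages overlapped. INSL3-KI testis had 43.0, 47.2 and 35.6 CPM at P8, 19.3, 23.9 and 23.4 CPM at P23 and 23.7, 17.0 and 14.1 CPM at P40. INSL3-KO testis had 41.4, 44.1 and 42.1 CPM at P8 and 10.3, 12.9 and 10.1 CPM at P23. Both mutants were above WT at P8 without overlap. Cpeb1 rose by 1.90 ± 0.30 in INSL3-KI (edgeR adjusted p = 0.0071) and by 1.89 in INSL3-KO (edgeR adjusted p = 0.00098) at P8, and on spermatocyte markers these were -1.21 and -0.89. The INSL3-KI call was lost in 5 of the 6 fits that left out 1 library, all but that without WT replicate 1, with values of 1.74 to 1.997 and edgeR adjusted p of 0.011 to 0.038. At P40 the value was 0.04 (edgeR adjusted p = 0.86), -2.07 on Sertoli cell markers and 1.51 on spermatocyte markers (edgeR adjusted p = 0.014).

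Dazl, at chr17:50279395-50293636 on the minus strand (ENSMUSG00000010592), is expressed from spermatogonia onward and had the narrowest range of the 5 germline members. It was 380.0, 268 and 206 CPM in WT testis at P8, 312, 279.9 and 296 CPM at P23 and 174, 198 and 206 CPM at P40. Levels in INSL3-KI were 490.4, 555 and 427 CPM at P8, 289.7, 245 and 382 CPM at P23 and 312, 224 and 175 CPM at P40. Levels in INSL3-KO were 571, 607 and 611 CPM at P8 and 203, 225 and 245 CPM at P23. The mutants exceeded every WT library at P8, and the INSL3-KI groups overlapped WT at P23 and P40. Dazl rose by 1.09 in INSL3-KO at P8 (edgeR adjusted p = 0.0031), and this was -1.71 on spermatocyte markers. The call was lost on Sertoli cell markers and in 5 of the 6 fits that left out 1 library, all but that without WT replicate 1, at 0.91 to 1.13. At P23 it was -0.34 in INSL3-KO (edgeR adjusted p = 0.00091, under 2-fold), 0.30 with library size as the only scaling and 2.86 on spermatocyte markers.

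Boll, at chr1:55248658-55363469 on the minus strand (ENSMUSG00000025977), is the ancestral member of the DAZ family and is needed in spermatids. It was 10.9, 5.66 and 5.26 CPM in WT at P8, 256, 217 and 228 CPM at P23 and 196, 212 and 211 CPM at P40. INSL3-KI values were 27.4, 94.4 and 24.5 CPM at P8, 237, 221 and 128 CPM at P23 and 128, 27.1 and 24.6 CPM at P40. INSL3-KO values were 24.8, 24.0 and 25.1 CPM at P8 and 10.5, 10.3 and 12.9 CPM at P23. Boll overlapped WT in INSL3-KI at P23 and lay below it in every INSL3-KI library at P40. It fell by 4.32 in INSL3-KO at P23 (19.9-fold, edgeR adjusted p = 4.8e-11). In INSL3-KI the values were -0.25 at P23 (edgeR adjusted p = 0.42, 0.24 on spermatocyte markers) and -1.76 at P40 (edgeR adjusted p = 0.044), and at P40 without replicate 1 it was -2.92 and called. At P8 it rose by 1.79 in INSL3-KO (edgeR adjusted p = 0.0013), which was -0.98 on spermatocyte markers and lost its call with all testis groups in 1 fit, at 1.76 (edgeR adjusted p = 0.016).

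Ybx2, the Y-box protein that packages stored mRNAs, lies at chr11:69935796-69941605 on the plus strand (ENSMUSG00000018554) and had the widest range of the members. It was 6.71, 3.61 and 5.68 CPM in WT testis at P8, 2249.7, 2591 and 2733 CPM at P23 and 3647, 3767 and 3260.3 CPM at P40. In the INSL3-KI libraries the gene was 30.4, 413 and 25.0 CPM at P8, 2065, 2159 and 933 CPM at P23 and 1004, 142 and 133 CPM at P40. In the INSL3-KO libraries the gene was 15.6, 16.9 and 19.2 CPM at P8 and 10.2, 12.1 and 13.1 CPM at P23. P8 replicate 2, P23 replicate 3 and P40 replicate 1 of INSL3-KI stood apart from the others of their groups, as they did for the late spermatocyte markers. Ybx2 fell by 7.67 ± 0.11 in INSL3-KO at P23 (204-fold, edgeR adjusted p = 2.4e-12). In INSL3-KI testes it measured -0.54 at P23 (edgeR adjusted p = 0.22) and -3.04 ± 0.86 at P40 (edgeR adjusted p = 0.018), and without replicate 1 the P40 value was -4.61 and called. At P8 it was 4.91 ± 1.23 in INSL3-KI (edgeR adjusted p = 0.024, 2.45 without replicate 2), and it rose by 1.71 in INSL3-KO (edgeR adjusted p = 0.00075), which was -1.14 on spermatocyte markers and 1.69 and not called with all testis groups in 1 fit (edgeR adjusted p = 0.13).

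Ddx4, the mouse vasa homologue of germ granules, lies at chr13:112598333-112652475 on the minus strand (ENSMUSG00000021758). It was 153, 110.0 and 94.9 CPM in WT testis at P8, 944, 871 and 919 CPM at P23 and 819, 812 and 697 CPM at P40. For INSL3-KI the levels were 173, 387 and 144 CPM at P8, 663, 685 and 373 CPM at P23 and 386, 107 and 90.7 CPM at P40. In INSL3-KO testes it measured 185, 188 and 186 CPM at P8 and 74.9, 76.2 and 78.7 CPM at P23. INSL3-KI overlapped WT at P8 and was below it at P23 and P40. Ddx4 fell by 3.51 in INSL3-KO at P23 (11.4-fold, edgeR adjusted p = 1.5e-12), a call lost on spermatocyte markers at -0.32 (edgeR adjusted p = 0.00067). In INSL3-KI at P40 it was -1.97 (edgeR adjusted p = 0.019), or -2.89 and called without replicate 1.

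Ddx25, a helicase induced by gonadotropin and present in germ and Leydig cells, lies at chr9:35536647-35558528 on the minus strand (ENSMUSG00000032101). It was 29.0, 17.3 and 15.4 CPM in WT testis at P8, 967, 928 and 935 CPM at P23 and 756, 752 and 667 CPM at P40. The levels in INSL3-KI libraries were 33.6, 107 and 33.3 CPM at P8, 600.0, 580.1 and 261 CPM at P23 and 282, 43.5 and 45.9 CPM at P40. For INSL3-KO the levels were 43.8, 38.9 and 42.9 CPM at P8 and 22.96, 20.7 and 24.2 CPM at P23. INSL3-KI was above WT at P8 and below it at P23 and P40, without overlap. Ddx25 fell by 5.32 in INSL3-KO at P23 (40.0-fold, edgeR adjusted p = 7.3e-13), a comparison within the second table. In INSL3-KI at P23, against WT libraries of the table with the shorter gene model, it was -0.96 (edgeR adjusted p = 0.043). With limma on log2(FPKM + 1) the value was -2.49 and called (limma adjusted p = 0.00088). Median implied lengths were 7203 bases in those INSL3-KI libraries and 1835 in WT. The FPKM values are thus not comparable there, and nothing is read from that call. In INSL3-KI at P40 it was -2.53 (edgeR adjusted p = 0.023), or -3.94 and called without replicate 1. In INSL3-KO at P8 it rose by 1.05 (edgeR adjusted p = 0.0063) against WT libraries of the other table, whose gene model differs, and it was -1.74 on spermatocyte markers. The call was lost on Sertoli cell markers and in 5 of the 6 fits that left out 1 library, all but that without WT replicate 1, at 0.88 to 1.10, and with all testis groups in 1 fit (edgeR adjusted p = 0.17).

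Ybx2 and Ddx25 had the largest folds of the members in INSL3-KO at P23, and the sequence before a start of each is shown to be set beside those of Cpeb3. Each line is the 250 bases before the start, on the gene's strand in GRCm38.p6, with CG dinucleotides in capitals.
Ybx2 chr11:69935649-69935898: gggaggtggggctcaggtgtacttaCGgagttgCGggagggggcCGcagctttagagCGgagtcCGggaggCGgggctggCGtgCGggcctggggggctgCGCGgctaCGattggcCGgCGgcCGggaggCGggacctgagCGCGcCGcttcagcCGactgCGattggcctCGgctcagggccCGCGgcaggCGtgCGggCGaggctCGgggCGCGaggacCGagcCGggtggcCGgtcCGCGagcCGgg
Ddx25 chr9:35558471-35558720: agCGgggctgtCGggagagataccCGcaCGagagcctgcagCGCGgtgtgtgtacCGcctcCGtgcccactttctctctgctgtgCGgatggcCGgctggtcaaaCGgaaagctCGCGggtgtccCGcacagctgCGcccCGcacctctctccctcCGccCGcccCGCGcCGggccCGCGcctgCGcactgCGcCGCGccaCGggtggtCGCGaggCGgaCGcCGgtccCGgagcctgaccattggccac
They hold 35 and 34 CG dinucleotides. Promoters were found for 8 of the 9 members, 12 in all, and none for Cpeb2. Motifs were searched on both strands of the 300 bases around each start. The full cAMP response element TGACGTCA, which CREM binds in spermatids, was in 1.79% of all promoters and in none of the members'. The MYB core CAACNG was in 35.0% of all promoters and in 1 of the 2 promoters of Boll. The RFX half-site GTTGCC was in 12.5% and in 1 promoter each of Cpeb3 and Ybx2. The motif CNCCTCAG, bound by STRA8, was in 7.94% and in promoters of Cpeb4, Dazl and Ybx2.

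At P8, 2 of the 9 members, Cpeb1 and Cpeb4, were called higher in INSL3-KI than in WT and none was called lower, where called means a change of at least 2-fold with an adjusted p below 0.01. Over all 15702 genes tested, 3.03% were called higher and 3.25% lower. In 8 members every INSL3-KI library exceeded every WT library, Ddx4 being the exception. The share of all genes separated in this way was not computed. By edgeR's quasi-likelihood test 7530 of the 15702 genes had an unadjusted p under 0.05. The median log2 difference of the members was 1.55, against 0.00 for all genes. The count depended on single libraries, with 0 to 4 members called higher when 1 library was left out, 4 of them without INSL3-KI replicate 2. Without WT replicate 2, WT replicate 3 or INSL3-KI replicate 1, 0 of all genes tested were called higher. Of 14 spermatocyte markers 13 were called higher, with a median of 3.18 and a summed level of 139.1 to 289.6 CPM in WT and 918.4 to 2017 CPM in INSL3-KI. Scaling the libraries on those markers moved the median of all genes to -3.20 and left 6 members called lower, a count without the share of all genes. Of 7 Leydig cell markers 5 were called lower, from sums of 628.2 to 755.6 CPM in WT to 186.8 to 210.8 CPM. Insl3, the gene replaced in INSL3-KI, is among the 7, at 63.4 to 79.5 CPM in WT. Its part of the drop was set by the genotype. The 5 markers listed for gubernaculum mesenchyme, Rxfp2, Col1a1, Col3a1, Pdgfra and Dcn, summed to 4709 to 14950 CPM in WT and 2126 to 3339 CPM in INSL3-KI. Rxfp2 was 0.349 to 1.77 CPM in those WT testes and 39.2 to 49.4 CPM in P8 WT gubernaculum. Nearly all of the testis sum thus came from the other genes of the list. The part of the cells that carry these markers in the members' levels was not tested.

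In INSL3-KO at P8, 5 of 9 members were called higher than in WT, namely Cpeb1, Dazl, Boll, Ybx2 and Ddx25, against 5.44% of the 15723 genes tested, and none lower, against 8.37%. Cpeb2 at 0.73 and Cpeb4 at 0.74 (edgeR adjusted p = 0.0034 and 0.00037) missed the fold threshold, Ddx4 was 0.67 (edgeR adjusted p = 0.011), and Cpeb3 overlapped WT. All 14 spermatocyte markers were called higher, with a median of 2.85 and sums of 1103 to 1125 CPM. On those markers the median of all genes moved to -2.92 and 7 members were called lower, a count without the share of all genes. Leydig cell markers, with the knocked-out Insl3 among them, summed to 435.3 to 454.2 CPM in INSL3-KO, with 3 of 7 called lower. The markers listed for gubernaculum mesenchyme summed to 3380 to 3471 CPM, with 2 of 5 called lower. The part of the cells behind both lists was not tested. With all testis groups in 1 fit, 2 members, Cpeb1 and Dazl, were called. Of the listed germline RNA-binding genes, Ythdc2, which drives entry into meiosis, was called higher in INSL3-KI at 2.04 ± 0.21 on the log2 scale (edgeR adjusted p = 0.0038). Its partner Meioc was called higher in INSL3-KO, across the tables, at 3.61 ± 0.70 (edgeR adjusted p = 0.004). Adad1 at 1.82 and Elavl2 at 1.68 were also called higher in INSL3-KO. Igf2bp2 of the same list was called lower in both, at -1.55 in INSL3-KI and -1.32 in INSL3-KO (edgeR adjusted p = 0.0071 and 0.0019).

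**Figure D3:**
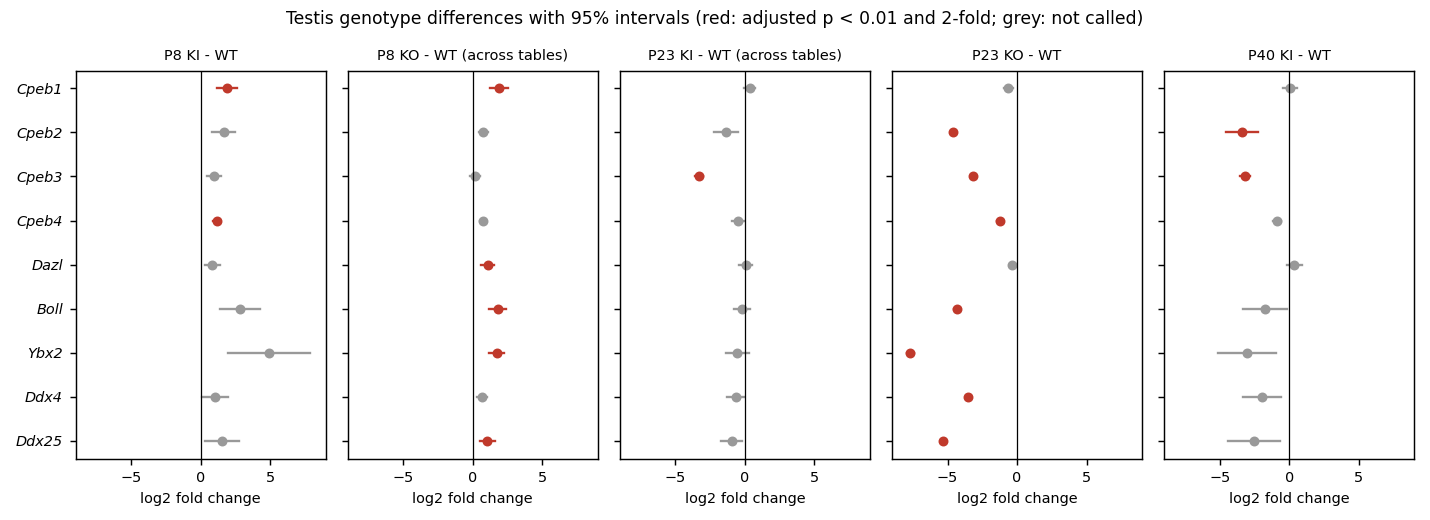
Log2 fold change against WT of each member (x axis) in 5 genotype comparisons in testis, as points with 95% intervals, red where called and grey where not. At P23 Cpeb3 is the red point in INSL3-KI and 7 members are red in INSL3-KO, and with libraries scaled on spermatocyte markers Cpeb1, Cpeb3, Cpeb4 and Dazl in P23 INSL3-KO, Cpeb4 in P40 INSL3-KI, Boll in P23 INSL3-KI and all P8 differences but that of Ybx2 in INSL3-KI change sign, as do Cpeb3 in P8 INSL3-KO and Cpeb1 and Dazl in INSL3-KI at P23 and P40 on Sertoli cell markers, and Boll in P23 INSL3-KI and Cpeb1 and Dazl in P23 INSL3-KO on library size alone.

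At P23, Cpeb3 alone of the 9 members was called lower in INSL3-KI than in WT, against 11.8% of 16603 genes, and no member was called higher, against 8.81%. Cpeb2 at -1.37, Ddx25 at -0.96 (edgeR adjusted p = 0.043), Ddx4 at -0.65 (edgeR adjusted p = 0.071) and Cpeb4 at -0.52 (edgeR adjusted p = 0.045) were below WT in every library without being called. Ybx2 was also below WT in every library, while Boll, Cpeb1 at 0.33 and Dazl at 0.06 overlapped it, and the last 2 were -0.61 and -0.97 on Sertoli cell markers. The spermatocyte markers summed to 3170 to 3368 CPM in WT and 1 of 14 was called lower. Of the round spermatid markers 7 of 10 and of the elongating spermatid markers 8 of 10 were called lower. Elongating spermatid sums were 26540 to 28080 CPM in WT and 858.3, 1191 and 122.1 CPM in INSL3-KI. Leydig cell markers summed to 1620 to 1773 CPM in WT and 302.2 to 489 CPM in INSL3-KI. Insl3, replaced in INSL3-KI, gave 840.0 to 1029 CPM of those WT sums. Sertoli cell markers summed to 785.8 to 826.4 CPM in WT and 1104 to 2667 CPM in INSL3-KI. Whether any of these cell types carries the difference in Cpeb3 was not tested.

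In INSL3-KO at P23, 7 of 9 members were called lower than in WT, against 33.4% of 16732 genes, and none higher, against 31.1%. All 9 were below WT in every library as scaled by TMM. How many of all genes were so separated was not computed, and 14845 of 16732 had an unadjusted edgeR p under 0.05. In order of fold the called members were Ybx2, Ddx25, Cpeb2, Boll, Ddx4, Cpeb3 and Cpeb4, while Cpeb1 at -0.62 (edgeR adjusted p = 0.0014) and Dazl were under 2-fold. The median of the members was -3.51, against 0.06 for all genes. All 14 spermatocyte, 8 late spermatocyte, 10 round spermatid and 10 elongating spermatid markers were called lower, and all 12 Sertoli cell markers were called higher. On spermatocyte markers the median of all genes moved to 3.25, and Cpeb2, Boll, Ybx2 and Ddx25 were called lower and 3 members higher. Cpeb1 was 2.57 there. The share of all genes called on that scaling is not given here. With library size as the only scaling Cpeb1 was 0.016.

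The mutant libraries at P23 stand in different tables. Against INSL3-KO, 6 of 9 members were called higher in INSL3-KI, against 25.2% of 16379 genes, and none lower, against 13%, with values of 7.19 for Ybx2, 4.41 for Ddx25, 4.12 for Boll, 3.27 for Cpeb2, 2.91 for Ddx4 and 1.00 for Cpeb1, which was -1.75 on spermatocyte markers. Cpeb4 was 0.76 (edgeR adjusted p = 0.012) and Dazl 0.45 (edgeR adjusted p = 0.07), and both were negative on spermatocyte markers, at -2.03 and -2.29. On spermatocyte markers Cpeb2 at 0.45 (edgeR adjusted p = 0.18) and Ddx4 at 0.10 (edgeR adjusted p = 0.62) were no longer called, and Ybx2 at 4.36, Ddx25 at 1.60 and Boll at 1.32 were. The Cpeb1 call was lost without INSL3-KI replicate 2 or 3 or INSL3-KO replicate 1 or 3, at 0.93 to 0.96.

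At P40, Cpeb2 and Cpeb3 were called lower in INSL3-KI than in WT, against 22.1% of 16677 genes, and no member was called higher, against 25.6%. Without INSL3-KI replicate 1, 6 members were called lower, adding Boll, Ybx2, Ddx4 and Ddx25. The share of all genes called in that fit is not given here, and nothing about the members is read from the rise. In 7 members every INSL3-KI library was below every WT library, Cpeb1 and Dazl being the exceptions. The share of all genes without overlap was not computed, and 13200 of 16677 had an unadjusted edgeR p under 0.05. Cpeb1 at 0.04 and Dazl at 0.34 (edgeR adjusted p = 0.19) were -2.07 and -1.76 on Sertoli cell markers, and on spermatocyte markers they were 1.51 and 1.80, where Dazl was called higher (edgeR adjusted p = 0.0012). The spermatocyte markers summed to 2665 to 2856 CPM in WT and to 1644, 533.3 and 421.8 CPM in INSL3-KI, and 2 of 14 were called lower. Of the round spermatid markers 8 of 10, and of the elongating spermatid markers all 10, were called lower. All 12 Sertoli cell markers were called higher, from sums of 698.1 to 750.6 CPM in WT to 2510 to 3506 CPM.

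**Figure D4:**
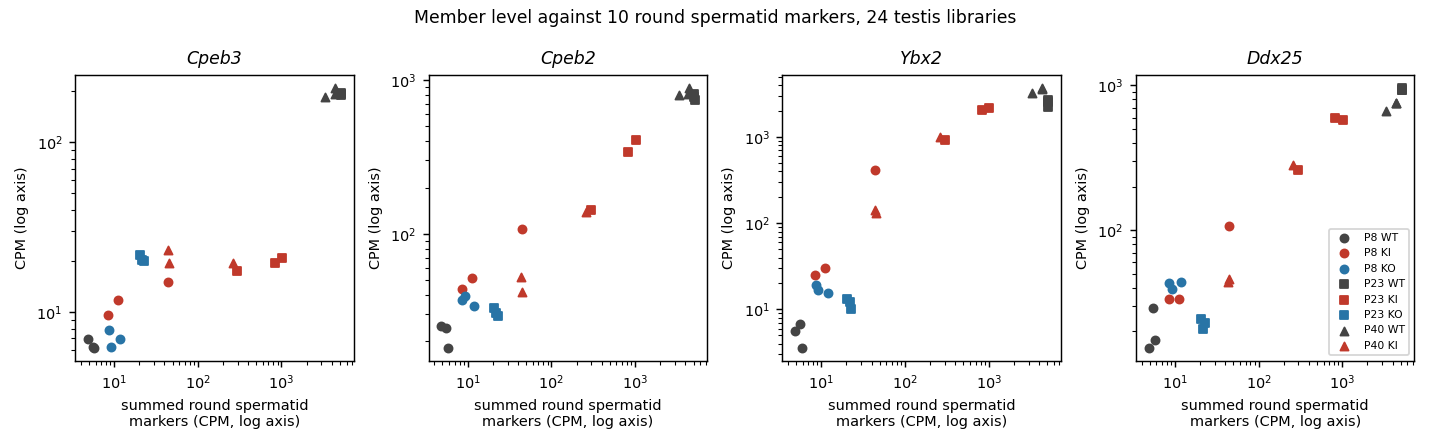
Level of Cpeb3, Cpeb2, Ybx2 and Ddx25 (y axis, CPM, log scale) against the summed level of 10 round spermatid markers (x axis, CPM, log scale) in the 24 testis libraries, with circles for P8, squares for P23 and triangles for P40, and WT in dark grey, INSL3-KI in red and INSL3-KO in blue. The P23 INSL3-KI libraries, at 297 to 1017 CPM of markers, hold Cpeb3 at 17.4 to 20.9 CPM and Ybx2 at 933 to 2159 CPM.

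With age, 7 of 9 members rose in WT testis from P8 to P40, against 31.9% of 16892 genes called higher, and none fell, against 27.8% called lower. The rise was 644-fold for Ybx2, 35.6-fold for Cpeb2, 34.0-fold for Ddx25, 29.2-fold for Cpeb3, 27.5-fold for Boll, 6.27-fold for Ddx4 and 3.91-fold for Cpeb4. Dazl was -0.62 (edgeR adjusted p = 0.025). Cpeb1 was 0.60 (edgeR adjusted p = 0.09), 1.01 and called without P8 WT replicate 1, and -0.08 on library size alone. From P8 to P23 the same 7 were called higher, across the tables, against 32.8% of 16908 genes, and none lower, against 29%, with log2 values from 2.17 for Cpeb4 to 8.84 for Ybx2.

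In INSL3-KI testis from P8 to P23, Cpeb1 was called lower at -1.06 (edgeR adjusted p = 0.0091), against 3.53% of 16412 genes, and no member was called higher, against 5.7%. Ybx2 at 3.33 (edgeR adjusted p = 0.06), Ddx25 at 2.91 (edgeR adjusted p = 0.013), Cpeb2 at 1.99 (edgeR adjusted p = 0.023) and Boll at 1.87 (edgeR adjusted p = 0.041) were not called. The Cpeb1 call was lost in every fit that left out 1 library, at -1.17 to -0.97. Without P8 replicate 2, Boll at 2.76, Ybx2 at 5.80 and Ddx25 at 3.69 were called higher, and without P23 replicate 3, Cpeb2 at 2.46 and Ddx25 at 3.34. From P23 to P40 edgeR's quasi-likelihood test called none of the 9 members and 0% of 16328 genes, while 7615 genes had an unadjusted p under 0.05 and DESeq2 called Cpeb2 lower at -2.05. In INSL3-KO testis from P8 to P23, Cpeb1 at -1.92, Dazl at -1.40, Ddx4 at -1.27 and Boll at -1.12 were called lower and Cpeb3 higher at 1.57 (edgeR adjusted p = 4.6e-08), against 11.7% of 15773 genes called lower and 12% called higher.

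The difference between INSL3-KI and WT itself changed from P8 to P40 in 8 of 9 members, tested as an interaction within the first table, against 22.5% of 17354 genes called lower and 23.2% called higher. Cpeb3 changed by -4.22 and Cpeb2 by -5.12 on the log2 scale, and Dazl at -0.58 (edgeR adjusted p = 0.13) was not called.

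Genes of the wider machinery of poly(A) tails and cap binding were called in both directions. Their counts stand beside the percentages of all genes called in the same comparisons, given above, and nothing about the lists is read from them. Of 41 listed poly(A) tail genes, 38 were tested at P8 and 40 later. In INSL3-KI, 1 was called lower and 2 were called higher at P8, 7 lower and 1 higher at P23, and 11 lower and 5 higher at P40. The INSL3-KO libraries had 1 called in each direction at P8, and 17 lower with 5 higher at P23. Cpsf4l, related to a subunit of the cleavage and polyadenylation factor, fell by 5.26 ± 0.52 in INSL3-KI at P23 and by 5.89 ± 0.32 at P40. Tent5c, a cytoplasmic poly(A) polymerase, fell by 1.76 in INSL3-KI at P8 and fell by 2.47 at P23. In INSL3-KO at P23 the testis-specific poly(A) polymerase Papolb fell by 8.02, from 1286 to 4.75 CPM, and the poly(A)-binding proteins Pabpc2 and Pabpc6 fell by 8.37 and 7.72, while Pabpc4 rose by 2.45 and Tent5a by 2.62.

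Of the cap-binding and repressor partners, none of 24 was called at P8 in INSL3-KI and 2 were lower and 1 higher in INSL3-KO, 1 was lower and 1 higher of 23 in INSL3-KI at P23, 4 lower and 6 higher of 23 in INSL3-KO at P23 and 4 lower and 5 higher of 22 in INSL3-KI at P40. The cap-binding protein gene Eif4e fell by 1.22 ± 0.13 in INSL3-KI at P23 and by 1.38 ± 0.13 at P40. Eif4ebp2, whose product sequesters eIF4E, rose by 1.17 ± 0.15 at P40, from 85.26 to 185.1 CPM, within the first table. Its P23 difference of 2.34 lies across tables, with 26.06 CPM in WT and 25.45 CPM in INSL3-KO in the second table and 130 CPM in INSL3-KI in the first. In INSL3-KO at P23 the kinase gene Aurka, whose product phosphorylates CPEB1, fell by 3.92, and Eif4g3, a scaffold needed for male meiosis, fell by 2.81. Of 41 other germline RNA-binding genes, 15 were lower and 6 higher in the INSL3-KO libraries of P23. For INSL3-KI, 2 were lower and 2 higher of 40 tested at P23, and 4 lower and 4 higher at P40. Among them Fxr1 fell by 1.75 in INSL3-KI at P23 and fell by 2.54 at P40. For INSL3-KO at P23, Adad1 fell by 5.78 and Ybx3 fell by 4.93, while Lin28a, a spermatogonial gene, rose by 2.52.

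Transcripts known to be controlled by the members gave 9 further genes. In INSL3-KI at P8, Sycp1 rose by 2.98 ± 0.44 and Sycp3 by 3.56 ± 0.47 (edgeR adjusted p = 0.0059 and 0.0048), the 2 transcripts with the element printed above, and Tex19.1, a target of DAZL, was -0.26. In INSL3-KO at P8 Sycp1 and Sycp3 rose by 2.80 and 3.60. At P23, 4 of the 9 were called lower in INSL3-KI, with Tnp1 at -6.41, Prm1 at -6.35, Smcp at -5.35 and Pgk2 at -2.39, and the stored spermatid mRNAs Prm2 at -6.03 and Tnp2 at -5.29 were not called (edgeR adjusted p = 0.013 for each). Sycp1 at -0.79 and Sycp3 at -0.55 were under 2-fold there. In INSL3-KO at P23, 8 of 9 were called lower, Sycp1 at -2.82 and Sycp3 at -2.84, with Prm1 at 2805 CPM in WT and 0.506 CPM in INSL3-KO. At P40, 6 of 9 were called lower in INSL3-KI, all but Sycp1 at -1.04, Sycp3 at -0.82 and Tex19.1 at 0.82. Prm1, Prm2, Tnp1, Tnp2 and Smcp are also markers of elongating spermatids, and Sycp1 and Sycp3 of spermatocytes.

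In the gubernaculum, a tissue without germ cells of its own, Cpeb2 was the member called in all 3 comparisons with WT. It was 27.8, 25.6 and 23.6 CPM in WT at P8, 37.9, 63.8 and 49.4 CPM in INSL3-KI and 63.7, 63.4 and 67.9 CPM in INSL3-KO. At P23 it was 39.6, 22.1 and 30.7 CPM in WT and 147, 135 and 118 CPM in INSL3-KI. The mutant libraries were above WT without overlap in each case. Cpeb2 was called higher in INSL3-KI at P8 at 1.02 (edgeR adjusted p = 0.0024, against 14.4% of 15500 genes called higher), in INSL3-KO at P8 at 1.34 (edgeR adjusted p = 1.2e-05, against 15.5% of 15609 genes and across tables) and in INSL3-KI at P23 at 2.12 ± 0.25 (edgeR adjusted p = 0.0077, against 0.212% of 15082 genes). The INSL3-KI call at P8 was lost with DESeq2 at 0.99 and without WT replicate 2, WT replicate 3 or INSL3-KI replicate 2, at 0.81 to 0.99. The call at P23 was lost in every fit that left out 1 library, with values of 1.93 to 2.35 and adjusted p of 0.01 to 0.041. Both P8 comparisons share the WT libraries.

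**Figure D5:**
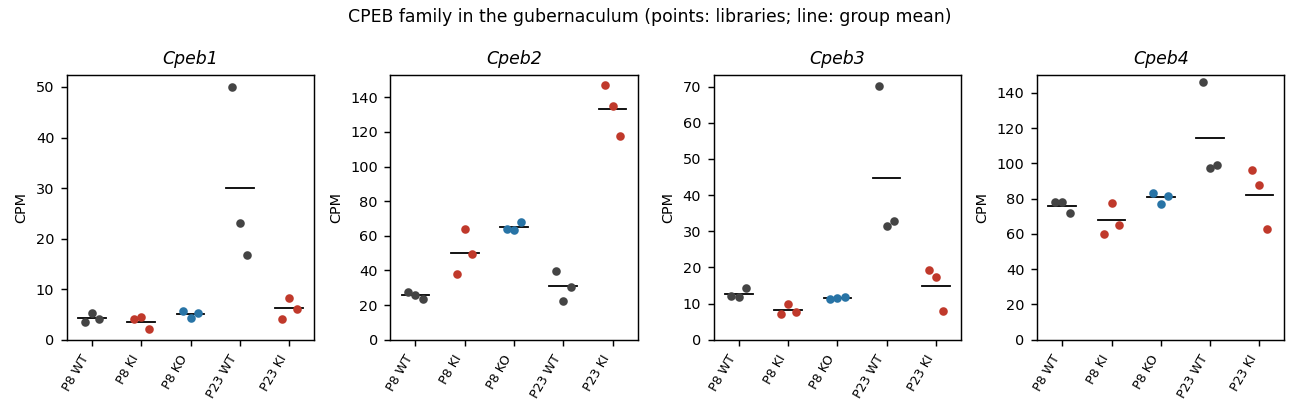
Levels of the CPEB genes (y axis, CPM, from 0) in the 15 gubernaculum libraries by age and genotype, 1 point per library with the group mean as a line (WT dark grey, INSL3-KI red, INSL3-KO blue). Cpeb2 is at 22.1 to 39.6 CPM in WT and at 37.9 to 147 CPM in the mutants, and at each age the mutant libraries lie above WT.

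The other CPEB genes did not follow Cpeb2 there. Cpeb1 was 50.1, 23.2 and 16.8 CPM in WT at P23 and 4.19, 8.32 and 6.07 CPM in INSL3-KI (-2.28, edgeR adjusted p = 0.036), and Cpeb3 was 70.2, 31.4 and 32.8 CPM against 19.3, 17.5 and 7.84 CPM (-1.58, edgeR adjusted p = 0.082). Neither was called, although the groups did not overlap. Ybx2 lay above WT at P23 without overlap, at 0.756 to 3.05 CPM in WT and 7.58 to 17.7 CPM in INSL3-KI, and was not called. The 7 skeletal muscle markers summed to 62360 to 112000 CPM in those WT libraries and to 14.51 to 934.2 CPM in INSL3-KI, and at P8 to 24000 to 25290 CPM in WT, 711.6 to 1266 CPM in INSL3-KI and 6274 to 6803 CPM in INSL3-KO. The part of muscle in the CPEB levels was not tested. Dazl, Ddx4 and Ddx25 were called lower in INSL3-KI at P8 at -2.69, -2.72 and -2.09, against 9.7% of genes, from WT means of 1.49, 2.99 and 3.48 CPM, and all 3 calls were lost when any library but WT replicate 3 was left out, at values from -3.14 to -1.49. In INSL3-KO at P8 none of the 9 was called lower, against 15.2% of genes, with Ddx4 at -1.72 (-2.05 and called without WT replicate 3), and Dazl was 1.53 (2.10 and called without WT replicate 2). Those WT libraries also held elongating spermatid markers at sums of 85.03, 22.27 and 2.087 CPM.

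Compared with the gubernaculum, WT testis at P8 had Dazl higher by 7.46, Ddx4 by 5.22, Boll by 2.84 and Ddx25 by 2.47 on the log2 scale, against 14.3% of 15624 genes called higher, while Cpeb4 at -1.71 and Cpeb3 at -1.09 were lower, against 14.1% called lower. Cpeb2 at -0.28 (edgeR adjusted p = 0.15) and Ybx2 at -0.88 (edgeR adjusted p = 0.28) overlapped between the tissues, and Cpeb2 was 0.14 on library size alone.

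Across the 24 testis libraries the members fell into like profiles. As a description over libraries that share groups, tables and germ cell content, the Pearson correlation of log2 CPM was 0.98 between Cpeb2 and Ddx25 and 0.975 between Boll and Ybx2, while Cpeb1 was nearest to Dazl at 0.817 and Cpeb3 was at -0.495 with Dazl. Among 16645 genes, the nearest to Cpeb3 were Grip1 at 0.99 and Srpk2 and F5 at 0.981. Those nearest to Ddx25 were Mael at 0.997, a piRNA pathway gene, and Bbs7 and Spata1 at 0.995. Nearest to Ddx4 were Pld6 at 0.993, which also acts in piRNA biogenesis, Tuba3a at 0.992 and Rnf17 at 0.99. Cpeb2 was closest to Zfp438 and Arhgap29 at 0.995, Ybx2 to Wdr20rt at 0.997, Boll to Nol8 at 0.993, Cpeb4 to Lig4 at 0.977, Cpeb1 to Fam90a1b at 0.96 and Dazl to Zmym5 at 0.944.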

How the data were processed

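Testis and gubernaculum mRNA was sequenced as paired ends from 39 libraries. The authors extracted RNA with TRIzol, made libraries with a Hieff NGS mRNA kit and mapped NovaSeq reads with HISAT2, and the submitters' processing notes name GRCm38. The authors deposited 2 kinds of values, raw counts and FPKM, each in 2 tables of 38822 and 58374 entries. The program that counted the reads, the annotation and the strand setting are not given in the sources used here. Tables were joined on the Ensembl identifier, and the 21561 shared genes held 94.2 to 97.9% of each library's counts.

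Groups came from the sample labels. The counts were tested with edgeR's quasi-likelihood test (R 4.3.3, edgeR 4.0.16) on the compared groups alone, with TMM scaling and filterByExpr (minimum count 10, minimum total 15). P-values were adjusted by the Benjamini-Hochberg method across every tested gene. Called genes changed at least 2-fold with an adjusted p below 0.01, and intervals are at 95%. The method was tested on simulated data with few changed genes, balanced in direction, and no library standing apart. That run does not cover shifts or spread as wide as in these data. CPM values were scaled by TMM over the libraries of a tissue, and transcript lengths were derived from counts and FPKM where a library had at least 200 counts. With 3 biological replicates a group, p-values measure the spread between these samples. Motifs and sequences were read from RefSeq (GRCm38.p6) and GENCODE M21 tables in Python 3.11.15 with pandas 2.3.3 and numpy 2.4.6.

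The members and gene lists were chosen with earlier results of these data known. The text names all members, up to 3 called genes in each direction per list with the largest fold change and a mean of at least 1 CPM, all target transcripts, and the 3 genes most alike to each member. Alternatives were DESeq2 1.42.0, limma 3.58.1 on log2(FPKM + 1), no filter on low counts, other scalings, all testis groups in 1 fit, a replicate block and each library left out in turn.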

Additional observations from a re-analysis of the deposited data

Results flagged for a closer look

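The difference between INSL3-KI and WT in testis was unlike at P8 and P40 for 8 members, by the interaction term in edgeR's quasi-likelihood test on the 12 libraries concerned, all in the first table. On the log2 scale the value at P40 minus that at P8 was -8.03 for Ybx2, -5.12 for Cpeb2, -4.64 for Boll, -4.22 for Cpeb3, -4.16 for Ddx25, -3.09 for Ddx4, -2.11 for Cpeb4 and -1.94 for Cpeb1. In 7 of these the INSL3-KI mean, as scaled by TMM, was above WT at P8 and below it at P40, and for Cpeb1 the P40 value was 0.04. Without P8 INSL3-KI replicate 2 the value for Ybx2 was -5.61, and without P40 INSL3-KI replicate 1 it was -9.56. The Ddx4 and Ddx25 calls were lost when P8 WT replicate 2, P8 WT replicate 3, P40 WT replicate 1 or P40 WT replicate 2 was left out. Spermatocyte marker sums were 139.1 to 289.6 CPM in WT and 918.4 to 2017 CPM in INSL3-KI at P8, and 2665 to 2856 CPM and 421.8 to 1644 CPM at P40, and their part in these differences was not tested.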

How the results depend on the processing

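With 3 libraries a group and wide spread in INSL3-KI, counts of called members near the thresholds moved with single libraries, and on cell type markers the median of all genes came to between -3.20 and 3.25 on the log2 scale. Of 1546 recomputed member values, 1328 kept direction and side of the threshold and 62 reversed. The cause of the changes below was not tested. Except where stated, counts of members called under an alternative, here and above, stand without the share of all genes called under it. Nothing about the members as a set is read from those counts. The calls of Cpeb3 in INSL3-KI at P23 and P40 held in all 14 alternatives each.

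With DESeq2, members called higher were 6 in P8 INSL3-KI, 3 in INSL3-KI from P8 to P23 (0 lower), 0 in P8 INSL3-KI gubernaculum, 2 (1 lower) in P8 INSL3-KO gubernaculum and 2 (1 lower) in P23 gubernaculum. Those called lower were 3 in P23 INSL3-KI, 7 in P40 INSL3-KI, where Cpeb1 was -0.13, and 1 in INSL3-KI from P23 to P40.
With all testis groups in 1 fit, 5 were higher in P8 INSL3-KI and 2 in P8 INSL3-KO, and 2 were lower in P23 INSL3-KI and 6 in P40 INSL3-KI, with Cpeb1 at -0.003.
No comparison checked had every same-numbered pair correlated above 0.1. Pairs were at 0.453, -0.389 and 0.42 in INSL3-KI testis from P23 to P40, and at -0.078, 0.307 and 0.44 in P23 gubernaculum. Testis and gubernaculum were set against each other only for WT at P8. The labels do not say whether same-numbered libraries share mice, and these correlations cannot decide it. With the replicate block, members called higher were 0 in P8 INSL3-KI, 2 in INSL3-KI from P8 to P23 (0 lower), 0 in P8 INSL3-KI gubernaculum (0 lower) and 0 in P23 gubernaculum.
On Sertoli cell markers, 1 was higher in P8 INSL3-KI, 3 in P8 INSL3-KO (Cpeb3 -0.38), and 9 lower in P40 INSL3-KI (Cpeb1 -2.07, Dazl -1.76). In P23 INSL3-KI Cpeb1 was -0.61 and Dazl -0.97, and against INSL3-KO Cpeb3 was 1.57.
On spermatocyte markers, 6 were lower and 0 higher in P8 INSL3-KI, with Cpeb1 -1.21, Cpeb2 -1.71, Cpeb3 -2.30, Cpeb4 -2.09, Dazl -2.29, Boll -0.54, Ddx4 -2.27 and Ddx25 -1.78. In P8 INSL3-KO 7 were lower and 0 higher, with Cpeb1 -0.89, Cpeb2 -2.16, Cpeb3 -2.76, Cpeb4 -2.16, Dazl -1.71, Boll -0.98, Ybx2 -1.14, Ddx4 -2.15 and Ddx25 -1.74. In P23 INSL3-KI Boll was 0.24. In P23 INSL3-KO 4 were lower and 3 higher, with Ddx4 -0.32, Cpeb1 2.57, Cpeb3 0.034, Cpeb4 1.97 and Dazl 2.86. In P23 INSL3-KI against INSL3-KO 4 were lower and 3 higher, with Cpeb3 -2.87, Cpeb2 0.45, Ddx4 0.10, Cpeb1 -1.75, Cpeb4 -2.03 and Dazl -2.29. In P40 INSL3-KI 4 were lower and 1 higher, with Cpeb4 0.67, Cpeb1 1.51 and Dazl 1.80.
With limma on log2(FPKM + 1), Cpeb3 was -0.006 in P8 INSL3-KO and 0.10 in P23 INSL3-KI against INSL3-KO. Dazl was 0.30 in P23 INSL3-KO. In P23 INSL3-KI 2 were lower, Cpeb3 and Ddx25, with Cpeb4 0.17 and Boll 0.43. The gene models differ across that comparison, and nothing is read from the Ddx25 call. Median implied lengths there were 4021 bases in INSL3-KI and 4696 in WT for Cpeb4, and 1760 and 2048 for Boll.
With library size as the only scaling, Boll was 0.21 in P23 INSL3-KI, Cpeb1 0.016 and Dazl 0.30 in P23 INSL3-KO, Cpeb1 -0.19 and Dazl -0.74 in WT from P8 to P23, Cpeb1 -0.08 (1 lower) in WT from P8 to P40, and Cpeb4 -0.044 in INSL3-KO with age. In P8 gubernaculum 1 was lower in INSL3-KI (Cpeb1 0.075, Cpeb4 0.19) and 2 higher in INSL3-KO (Cpeb3 0.025), Ddx4 was 0.10 in P23 gubernaculum, and between tissues 1 was lower and Cpeb2 was 0.14.
With 1 library left out, members called higher were 0 to 4 in P8 INSL3-KI, 3 to 5 in P8 INSL3-KO, 0 to 3 (0 lower) in INSL3-KI from P8 to P23, 0 to 1 (0 to 3 lower) in P8 INSL3-KI gubernaculum, 1 to 2 (0 to 1 lower) in P8 INSL3-KO gubernaculum and 0 in P23 gubernaculum. Those called lower were 1 to 2 in P23 INSL3-KI (Dazl -0.14 to 0.18) and 2 to 6 in P40 INSL3-KI (Cpeb1 -0.16 to 0.19). Dazl was -0.18 to 0.28 in WT from P8 to P23. In P8 gubernaculum Ybx2 was -0.12 to 1.34 and Cpeb1 -0.44 to 0.024 in INSL3-KI, and Ybx2 -1.19 to 0.25 in INSL3-KO. Ddx4 was -0.58 to 0.21 in P23 gubernaculum. Leaving out libraries was not run for the comparison of tissues.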
